A study of Mus musculus with 12 samples.

Results

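Interferon response and antigen presentation genes were followed in the lumbar spinal cord of mice with a neuronal Charcot-Marie-Tooth type 2A (CMT2A) transgene. The group holds 39 genes, listed by symbol and matched by Ensembl ID to the 49548 genes counted in each library, and 33 of the 39 passed the filter on low counts (above 1 CPM, counts scaled to a library of fixed size, in at least 3 of the 12 libraries). RNA was sequenced from 8 MFN2 mice and 4 WT mice, all untreated and 30 days old, with 1 library per mouse and total counts from 19359454 to 26738930. MFN2 mice are hemizygous MitoCharc1 animals, from a B6;D2 stock with Tg(Eno2-MFN2*R94Q)L51Ugfm/J, in which the neuron-specific rat Eno2 promoter drives human MFN2 with the R94Q change, and both mouse Mfn2 copies are retained. WT animals are labelled C57BL/6 and described in the study as littermates. Libraries are named by their number: MFN2 41, 42 and 43 and WT 44 to 47 form a first run of numbers, and MFN2 72 to 76 a second run without WT animals, so that in the second run number and genotype cannot be told apart. No source used here says what the number marks. The transgene is human and was not analysed here, and reads of mouse Mfn2 do not check the genotype labels.

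Interferons are secreted alarm proteins. Type I interferons are made when receptors recognise misplaced nucleic acid, for example DNA in the cytosol, where cGAS signals through STING. Mitochondrial DNA that leaves damaged mitochondria can act as such a ligand, and these genes were therefore examined in a model of a mitochondrial fusion protein. Interferon receptors activate the STAT and IRF transcription factors, which raise antiviral effectors, large GTPases and the class I molecules that show peptides to CD8 T cells. Class II molecules, which show peptides to CD4 T cells, are held mainly by professional antigen-presenting cells and by activated microglia. In the resting central nervous system both classes are low.

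The start sites of the group are shown first because many of them carry letters through which STAT and IRF factors are known to act. RefSeq promoter windows (GRCm38.p6, from 250 bases before to 50 bases after a gene's start) were found for 29 of the 39 genes. On either strand, the core of the interferon-stimulated response element (ISRE), taken as 2 copies of GAAA with any 2 bases between, was present for 17 of the 29 genes (58.6%), against 3.99% of the 27025 genes of the table and 3.44% of its 32851 windows. The gamma-activated site, TTCNNNGAA, which reads the same on both strands, was present for 8 of the 29 (27.6%), against 9.55% of all genes. GATTGG, the core of the Y box of class I and class II promoters, was present for 7 of the 29 (24.1%), against 18.2% of all genes. These 7 included all 4 class I genes and H2-Aa. All 5 GTPase genes with a window held an ISRE core. The 150 bases before the start are given for 2 antiviral effectors, 2 GTPases, and the class I and class II chains that later sections return to; capitals mark the 3 motifs, on either strand, and the 3 ISRE cores of Isg15 overlap each other. The windows are chr4:156200819-156200968 (minus strand) for Isg15, chr12:26456453-26456602 (minus) for Rsad2, chr3:142530186-142530335 (plus) for Gbp7, chr11:58199406-58199555 (plus) for Igtp, chr2:122147537-122147686 (plus) for B2m and chr17:34287824-34287973 (minus) for H2-Aa.
Isg15: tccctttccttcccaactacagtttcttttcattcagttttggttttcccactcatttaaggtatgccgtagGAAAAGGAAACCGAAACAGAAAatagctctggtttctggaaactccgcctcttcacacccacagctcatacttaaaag
Rsad2: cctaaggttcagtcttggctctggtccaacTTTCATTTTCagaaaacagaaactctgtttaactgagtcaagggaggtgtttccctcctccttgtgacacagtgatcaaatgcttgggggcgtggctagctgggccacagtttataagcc
Gbp7: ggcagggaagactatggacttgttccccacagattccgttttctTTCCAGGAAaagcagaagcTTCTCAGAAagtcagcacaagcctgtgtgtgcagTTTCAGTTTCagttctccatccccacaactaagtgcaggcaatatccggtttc
Igtp: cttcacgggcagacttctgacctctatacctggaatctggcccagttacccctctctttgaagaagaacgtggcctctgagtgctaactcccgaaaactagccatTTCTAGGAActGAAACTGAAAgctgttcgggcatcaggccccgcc
B2m: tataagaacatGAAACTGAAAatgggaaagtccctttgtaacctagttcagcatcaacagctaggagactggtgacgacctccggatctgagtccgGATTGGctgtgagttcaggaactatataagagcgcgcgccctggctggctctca
H2-Aa: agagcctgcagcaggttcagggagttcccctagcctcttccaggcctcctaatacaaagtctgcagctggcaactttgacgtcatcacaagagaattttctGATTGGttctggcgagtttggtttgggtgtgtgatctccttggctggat
A match of letters is a description and not a binding site, and no match says only that these letters were not in the window. Igtp and Gbp7 held both an ISRE core and a gamma-activated site, B2m an ISRE core and a Y box core, and H2-Aa a Y box core alone in the bases shown.

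Before the groups were compared, each library was checked against markers of the labelled tissue and of other cells. Motor neuron and caudal Hox genes, 10 in all, summed to between 295 and 371 CPM in WT mice and to between 313 and 362 CPM in 7 of the 8 MFN2 mice. The exception was MFN2 43, with 55.3 CPM. That library also held 4647 CPM of a list of 9 forebrain genes, against at most 209 CPM in any other library, and thus went against its label. MFN2 43 and MFN2 73 further held 292 and 321 CPM of a list of 4 Schwann cell genes, where the other 10 libraries had at most 84.0 CPM. Library WT 44 held T cell and neutrophil transcripts: Cd8a at 3.75 CPM against at most 0.151 elsewhere, Cd3e at 1.35 against at most 0.116 elsewhere, and S100a9 at 19.6 against at most 8.28. A list of 5 blood cell genes summed to 333 CPM in MFN2 73 and 202 CPM in WT 44, against at most 178 CPM elsewhere. A list of 7 meningeal fibroblast genes summed to 497 CPM in WT 44, 374 CPM in MFN2 73 and 371 CPM in MFN2 43. The other libraries had at most 321 CPM of it. Values without some of these libraries are given beside the results. Because the tissue was taken in bulk, fewer cells of a type and less RNA per cell cannot be told apart.

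Per length of transcript, the class I genes B2m, H2-D1 and H2-K1 had the highest means of the group, whereas Tap1 lay far lower. Over the 4 WT mice, B2m, the light chain of every class I molecule, stood at 57.04 ± 19.7 RPKM (CPM per kilobase of merged exons, mean ± SD, n = 4), H2-D1 and H2-K1, the classical heavy chains, at 29.3 ± 9.29 and 10.6 ± 4.39 RPKM, and Tap1, a subunit of the peptide transporter, at 0.705 ± 0.357 RPKM. Intervals of 1 SD around B2m and H2-D1 touched, those around H2-D1 and H2-K1 did not, and H2-K1 overlapped the next genes, Ifitm3 (8.49 ± 2.15 RPKM) and Ifi27 (8.10 ± 1.05 RPKM). Ifitm3 restricts virus entry at endosomal membranes, and Ifi27 is a small hydrophobic interferon-inducible protein. Among the other antiviral effectors, Ifit2 and Ifit3, which bind viral RNA, stood at 4.27 ± 0.619 and 3.06 ± 0.415 RPKM, and the other effectors lay lower. Stat2, the partner of IRF9 in the complex that binds the ISRE, led the transcription factors at 2.99 ± 0.285 RPKM, followed by Irf9 (1.33 ± 0.131), Irf1 (0.755 ± 0.126) and Irf7 (0.350 ± 0.134). Exons of Irf9 are shared in part with Rnf31 on the same strand, at a mean of 16.4 CPM, so the counts of Irf9 are uncertain. The cytosolic RNA receptors Ddx58 (RIG-I) and Ifih1 (MDA5) stood at 0.770 ± 0.119 and 0.524 ± 0.130 RPKM, and Tmem173 (STING) at 0.701 ± 0.0324. GTPases of the guanylate-binding and immunity-related families ranged from Gbp3 at 2.12 ± 0.418 RPKM down to Iigp1 at 0.398 ± 0.347. The class II genes Cd74, the invariant chain, H2-Ab1 and H2-Aa stood at 2.10 ± 3.04, 0.849 ± 1.18 and 0.175 ± 0.274 RPKM, with an SD above the mean in each.

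**Figure D1:**
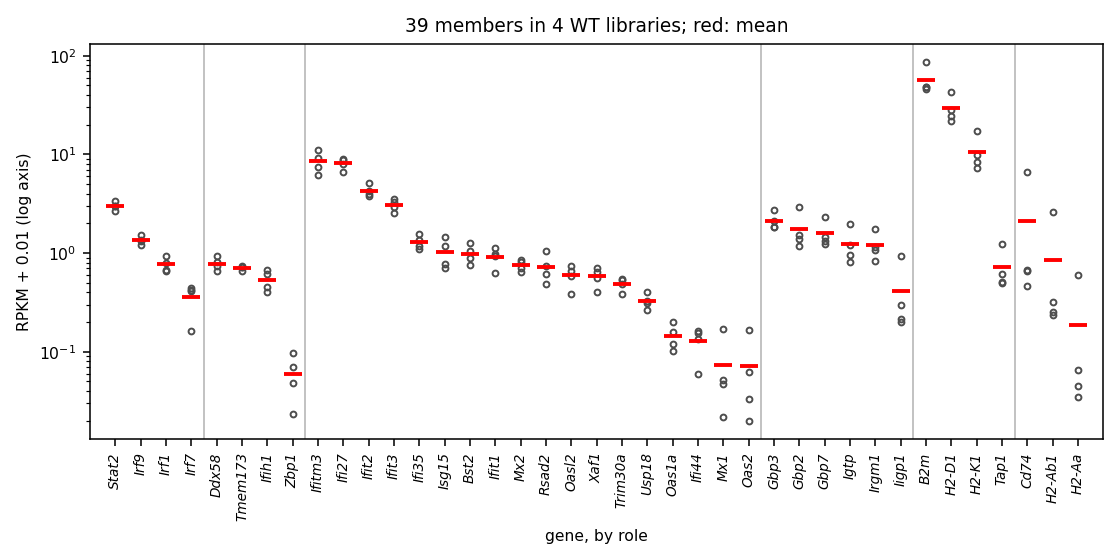
Level of each of the 39 genes in the 4 WT libraries in RPKM, plotted with 0.01 added on a log axis and ordered by role (transcription factors, nucleic acid sensors, antiviral effectors, GTPases, class I, class II, from left to right). Open circles are libraries and red bars are means; B2m is highest at 57.04 RPKM and the 3 class II genes have 1 library, WT 44, far above the other 3.

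The 6 genes under the filter were Zbp1, a sensor of Z-form nucleic acid, Isg15, the ubiquitin-like modifier, Oas1a and Oas2, which make the activator of RNase L, Mx1, whose gene carries a deletion in most laboratory strains, and Bst2 (tetherin). Their highest level in any library was 1.30 CPM, for Bst2 in MFN2 41, and they were not tested with this filter. In WT mice Isg15 lay between 0.522 and 1.08 CPM and in MFN2 mice between 0.459 and 0.903 CPM, so that the genotypes overlapped. Transcripts of the ligands were close to absent. Ifnb1 was at 0 in all 12 libraries, which allows up to 0.114 CPM in MFN2 41 and 0.157 CPM in WT 47, the lowest and highest such limits (3 counts; counting error only). The 5 other interferon genes listed (Ifna2, Ifna4, Ifng, Ifnl2 and Ifnl3) summed to at most 0.151 CPM in a library.

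With all 8 MFN2 mice set against the 4 WT mice, 0 of the 33 genes passed an FDR of 0.05 (quasi-likelihood F test of edgeR, p adjusted by Benjamini-Hochberg over the 15942 genes tested), and 0 of the 15942 genes did (0% called). At an unadjusted p under 0.05, 2 of the 33 genes passed (6.06%), both lower, beside 2386 of all genes tested (15%; 7.57% lower). Without the library MFN2 41, 12 of the 33 did (36.4%), all lower, beside 21.1% of all genes tested (11.3% lower), and 0 of the 33 passed the FDR. Without WT 44, 3 did (9.09%), 2 higher and 1 lower, beside 15.7% of all genes tested. Without the library MFN2 43, and without MFN2 43 and 73, 0 of the 33 genes passed the FDR as well. The median log2 fold change of the 33 genes was -0.10, beside 0.0038 over all genes tested, and 10 genes lay above 0 and 23 below. It was -0.26 without MFN2 41 and -0.06 without WT 44. DESeq2, which called 200 of all genes, also called 0 of the 33. Counts were simulated for this comparison with 1 common dispersion (spread between mice) for all genes, and randomly drawn genes were changed. Of 100 genes changed by a log2 fold change of 1, 71 were recovered, and 8 of 100 changed by 0.5, so that the smaller changes were mostly not detectable. Among the 33 genes the SE ran from 0.09 (Stat2) to 0.89 (H2-Aa), so these shares do not hold for each of them.

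The 3 genes with the smallest p among those with a higher mean in MFN2 mice were an inducer and 2 effectors of the type I response. Irf7, the factor that amplifies type I interferon production, stood at 0.568, 1.51, 1.64 and 1.57 CPM in WT 44 to 47, at 1.49, 2.02 and 1.45 CPM in MFN2 41 to 43 and at 1.45, 2.31, 2.33, 1.12 and 2.14 CPM in MFN2 72 to 76. The groups overlapped, WT 44 was the lowest library, and the log2 fold change was 0.44 ± 0.29 (SE; adjusted p = 0.465, edgeR), or 0.19 without WT 44 (adjusted p = 0.710). Exons of Irf7 overlap those of Phrf1 on the other strand, which stood at a mean of 66.2 CPM, and whether the counting used strand is not given, so its counts are uncertain. Rsad2 (viperin), a radical SAM enzyme that makes a chain-terminating nucleotide, stood at 4.50, 2.07, 2.61 and 3.13 CPM in WT mice, at 2.25, 4.24 and 3.05 CPM in MFN2 41 to 43 and at 5.18, 10.9, 3.86, 2.25 and 3.36 CPM in MFN2 72 to 76. Its log2 fold change of 0.51 ± 0.41 (SE; adjusted p = 0.543) fell to 0.17 without MFN2 73, the highest library. Usp18, the protease that removes ISG15 from proteins and damps the type I receptor, stood at 0.873, 0.848, 0.709 and 1.10 CPM in WT mice, at 0.687, 0.458 and 1.17 CPM in MFN2 41 to 43 and at 1.14, 1.10, 1.73, 0.852 and 1.63 CPM in MFN2 72 to 76. Its log2 fold change was 0.31 ± 0.33 (SE; adjusted p = 0.645), or 0.18 without MFN2 74, and once the number run was added as a covariate it turned to -0.20 (adjusted p = 0.796). In each of these 3 genes the levels of WT and MFN2 mice overlapped, and none was called.

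The 3 genes with the smallest p among those with a lower mean were Ifitm3, Ifi27 and Gbp7. Ifitm3 stood at 7.55, 6.22, 5.09 and 4.17 CPM in WT mice, at 6.64, 3.32 and 3.38 CPM in MFN2 41 to 43 and at 3.34, 3.41, 3.54, 2.75 and 3.57 CPM in MFN2 72 to 76. MFN2 41 lay among the WT mice and the other 7 transgenic mice lay lower than all 4 of them. The log2 fold change was -0.62 ± 0.22 (SE; adjusted p = 0.278, edgeR). Ifi27 stood at 9.73, 13.0, 11.8 and 13.0 CPM in WT mice, at 13.7, 8.33 and 8.73 CPM in MFN2 41 to 43 and at 7.82, 8.68, 10.3, 8.09 and 8.06 CPM in MFN2 72 to 76. Here WT 44 was the lowest WT library and MFN2 41 the highest of all, and the log2 fold change was -0.36 ± 0.15 (SE; adjusted p = 0.301, edgeR). Gbp7, a guanylate-binding GTPase that acts on pathogen membranes, stood at 13.0, 7.44, 6.82 and 8.14 CPM in WT mice, at 11.3, 7.52 and 5.91 CPM in MFN2 41 to 43 and at 5.14, 6.47, 5.07, 5.46 and 4.89 CPM in MFN2 72 to 76, with a log2 fold change of -0.45 ± 0.24 (SE; adjusted p = 0.374). In all 3 genes the first-run library MFN2 41 stood apart from MFN2 42 and 43. Without WT 44 the log2 fold change of Gbp7 was -0.20 (adjusted p = 0.664, edgeR) and that of Ifitm3 -0.46 (adjusted p = 0.359). Left out alone, MFN2 41 moved the log2 fold change of Ifitm3 to -0.79 (adjusted p = 0.0657) and that of Ifi27 to -0.47 (adjusted p = 0.0748), both short of the threshold.

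**Figure D2:**
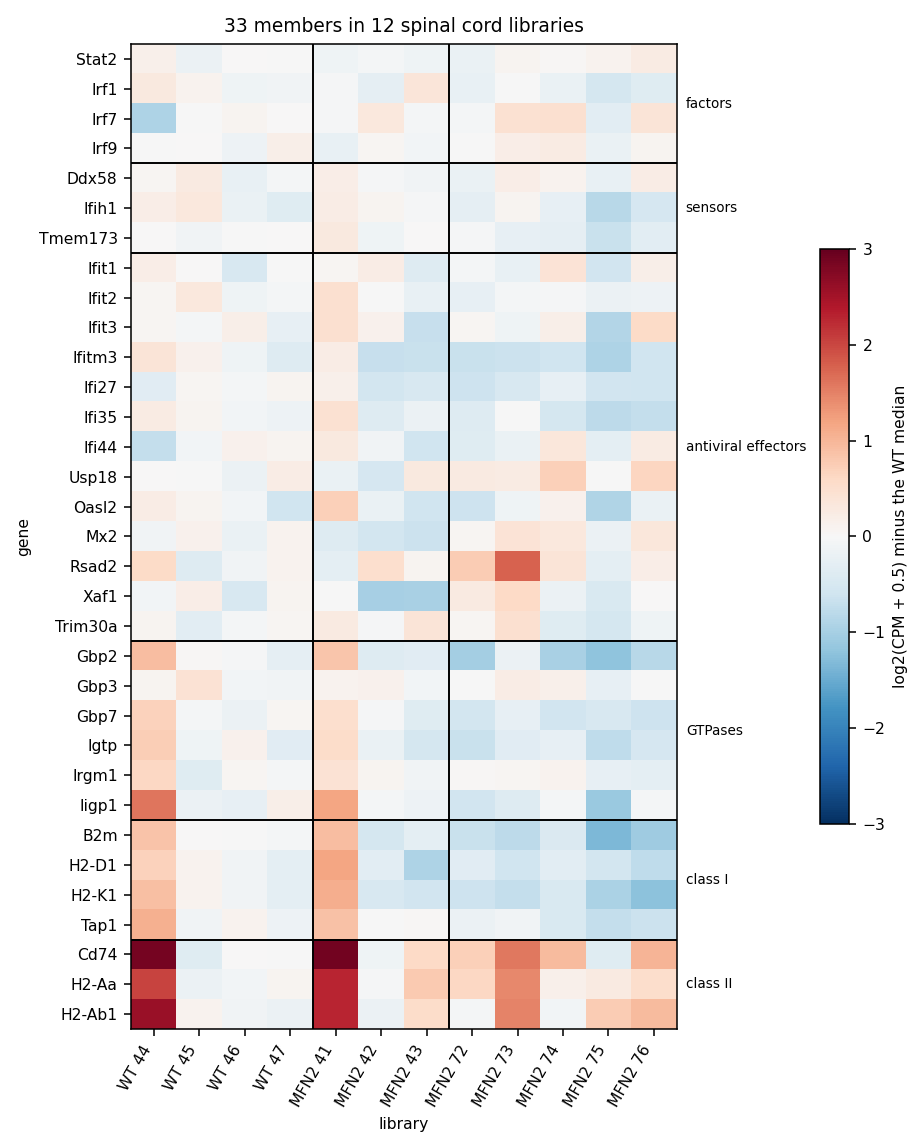
Levels of the 33 genes above the filter (rows, by role) in the 12 libraries (columns; WT, first-run MFN2 and second-run MFN2 separated by lines), as log2(CPM + 0.5) minus the median of the 4 WT libraries. Class I, class II and most GTPase rows are darkest red in WT 44 and MFN2 41, 1 library of each genotype, and the second-run libraries are mostly blue in the class I and GTPase rows.

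Within the first run of library numbers, the only one with both genotypes, the interferon and antigen presentation genes showed no call. Between MFN2 41 to 43 and the 4 WT mice, 0 of the 33 genes passed an FDR of 0.05, beside 1 of the 15942 genes tested (0.00627%), and without MFN2 43 also 0 of the 33. At an unadjusted p under 0.05, 1 of the 33 passed, beside 7.2% of all genes tested (1.85% lower). This gene was Mx2, an interferon-inducible gene of the dynamin-like GTPase family that the gene annotation used here lists as a polymorphic pseudogene. It stood at 2.49, 3.01, 2.30 and 2.92 CPM in WT mice and 1.95, 1.68 and 1.55 CPM in MFN2 41 to 43, with no overlap, as for 4.28% of all genes tested in that direction (log2 fold change -0.62 ± 0.21, SE; adjusted p = 0.635, edgeR). The second-run MFN2 mice, at 2.81, 3.76, 3.46, 2.32 and 3.57 CPM, did not share the low level of Mx2. The median log2 fold change of the 33 genes was 0.03, with 18 above 0 and 15 below, a balance that depended on single libraries. Without MFN2 41 the median was -0.34, with 6 above 0 and 27 below. The medians by role were then -0.69 for class I, -1.25 for class II and -0.50 for the GTPases. At an unadjusted p under 0.05, 4 genes then passed, all lower (12.1%, beside 15.1% of all genes tested and 4.79% lower). Without WT 44 the median was 0.16, with 24 above 0 and 9 below, and 3 genes passed the unadjusted p, 2 higher and 1 lower (9.09%, beside 5.94%). The role medians were then 0.35 for class I, 2.28 for class II and 0.23 for the GTPases. Without both MFN2 41 and WT 44 they were -0.40, 0.56 and -0.09, and with all libraries of this run 0.03, 0.43 and -0.09. Without MFN2 43 the median of the 33 genes was 0.15, with 25 above 0 and 8 below, and 0 passed the unadjusted p (beside 5.67%). On counts simulated for this comparison, again with 1 common dispersion, 27 of 100 genes changed by a log2 fold change of 1 were recovered. The SE of the 33 genes ran from 0.10 (Stat2) to 1.22 (H2-Aa), so this share does not hold for each of them.

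In this run 2 libraries stood apart from the rest of their genotype. MFN2 41 and WT 44, 1 of each genotype, were the 2 highest of the 12 libraries for 15 of the 33 genes (45.5%), beside 279 of all 15942 genes tested (1.75%). This held for all 4 class I genes, all 3 class II genes, 5 of the 6 GTPases and 3 of the 13 antiviral effectors, and for 0 of the 4 transcription factors and 0 of the 3 sensors. The pattern was chosen after the values were seen and is given as a description. B2m stood at 78.5 CPM in MFN2 41 and at 74.5 CPM in WT 44, whereas the other 10 libraries lay between 16.0 and 41.2 CPM. For Cd74, the invariant chain and the most abundant class II gene, the values were 11.2, 0.754, 1.11 and 1.10 CPM in WT mice, 11.4, 0.955 and 1.92 CPM in MFN2 41 to 43 and 2.11, 4.26, 2.62, 0.736 and 2.75 CPM in MFN2 72 to 76. MFN2 73, with 4.26 CPM, was the third highest. H2-Ab1, the class II beta chain, was led by the same 3 libraries, with 6.72 CPM in WT 44, 5.38 CPM in MFN2 41, 2.86 CPM in MFN2 73 and at most 1.84 CPM in the others. H2-Aa, the alpha chain, stood at 2.23 and 2.78 CPM in the 2 libraries and at no more than 1.30 CPM elsewhere.

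The 2 libraries were not alike in the leukocyte and microglia markers, and both were high in part of the astrocyte markers. They were the 2 highest of the 12 libraries for 3 of the 6 astrocyte genes (50%), beside 0 of 12 microglia genes and 1 of the 7 leukocyte genes tested. The same held for 8 of the 22 other antigen processing and presentation genes tested (36.4%). WT 44 was the highest library for Ptprc (CD45), the pan-leukocyte gene, at 16.4 CPM against 8.01 CPM in MFN2 41 and at most 8.88 CPM elsewhere. The list of 13 genes of border macrophages and other leukocytes, of which Flt3 is the most abundant, summed to 82.0 CPM there and to 39.2 CPM in MFN2 41. In MFN2 41 the T cell markers were near 0, with Cd8a at 0.0381 CPM and Cd3e at 0.114 CPM against 3.75 and 1.35 CPM in WT 44. The 12 microglia genes summed to 336 CPM in MFN2 41, the highest of the 12 libraries, and to 212 CPM in WT 44, the lowest of the 4 WT libraries. Gfap, the astrocyte filament gene, was also highest in MFN2 41, at 3002 CPM, against 1549 CPM in WT 44. Among regulators, chosen after their values were seen, Nlrc5, the transactivator of class I genes, was highest in the same 2 libraries, at 5.50 and 4.16 CPM against at most 2.45 CPM elsewhere, and Ciita, the transactivator of class II genes, stood at 0.873 and 0.458 CPM, while MFN2 73 had 0.853 CPM. The part of leukocytes, microglia, astrocytes, blood and meninges in these levels was not tested.

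With both libraries left out, 0 of the 33 genes passed an FDR of 0.05 between MFN2 42 and 43 and WT 45 to 47, and 6 passed an unadjusted p under 0.05 (18.2%), all lower, beside 12.5% of all genes tested (4.12% lower). B2m then lay at 28.2 and 33.4 CPM in the MFN2 mice and between 39.3 and 41.2 CPM in the WT mice, with a log2 fold change of -0.37 (adjusted p = 0.399, edgeR). In the comparison of 8 with 4 mice without the 2 libraries, 0 of the 33 genes passed the FDR and 9 an unadjusted p under 0.05 (27.3%), 7 lower and 2 higher (Cd74 and H2-Aa), beside 21.5% of all genes tested (11.1% lower and 10.4% higher). The value for B2m was then -0.68 on the log2 scale (adjusted p = 0.107). The class II genes depended most on WT 44. Over all 12 libraries Cd74 had a log2 fold change of -0.08 ± 0.82 (SE; adjusted p = 0.968) and H2-Aa of 0.25 ± 0.89 (SE; adjusted p = 0.906). Without WT 44 the values were 1.76 (adjusted p = 0.313) and 2.45 (adjusted p = 0.286). Without both libraries they were 1.14 (adjusted p = 0.219) and 1.79 (adjusted p = 0.190). Of the 5 second-run mice, 4 lay above WT 45 to 47 in Cd74 and MFN2 75 lay below them. Against WT, the second-run log2 fold changes of Cd74, H2-Aa and H2-Ab1 were -0.53, -0.29 and -0.56 with WT 44. Without it they were 1.32, 1.90 and 1.15 (adjusted p = 0.0575, 0.0555 and 0.107, edgeR). Without MFN2 73 they were -0.80, -0.83 and -0.92. The sign turned without WT 44, and the FDR was met in none of these fits. Over 8 against 4 mice, Cd74 and H2-Aa stood at -0.14 and 0.13 without MFN2 73.

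**Figure D3:**
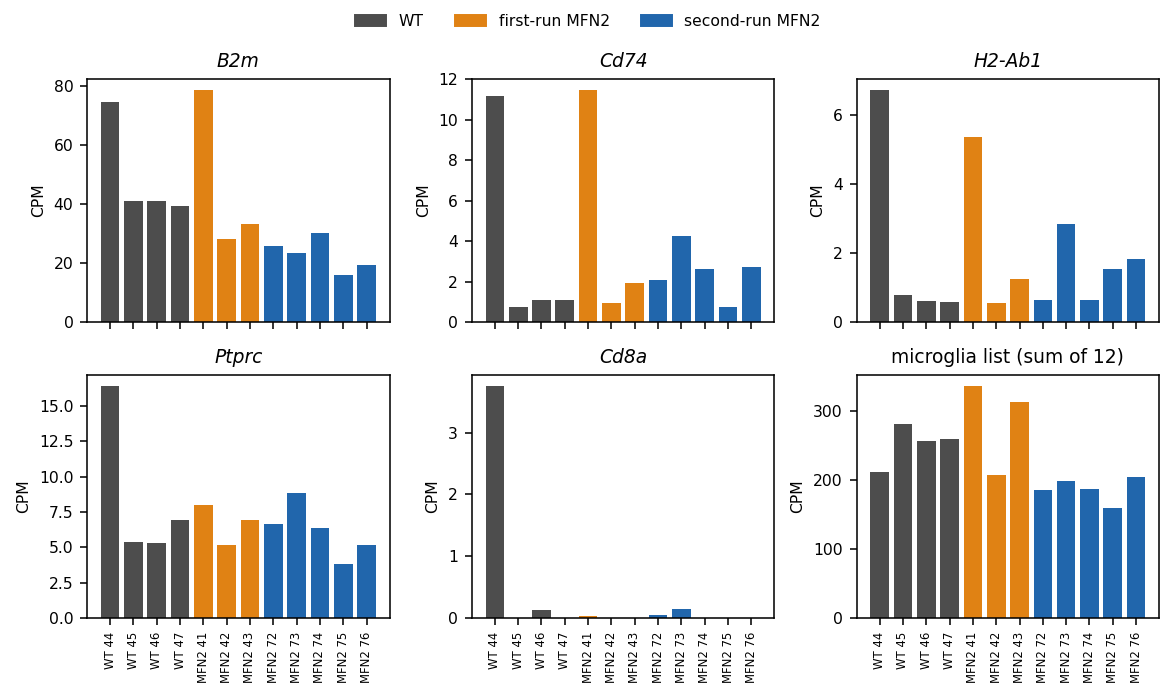
Levels in CPM per library of B2m, Cd74, H2-Ab1, the pan-leukocyte gene Ptprc, the T cell gene Cd8a and the sum of the 12 microglia genes; bars are single libraries, coloured by WT, first-run MFN2 and second-run MFN2. WT 44 and MFN2 41 lead the 3 antigen presentation panels, whereas Cd8a is present in WT 44 and near 0 in MFN2 41.

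Between the second-run MFN2 mice and WT mice, 3 class I genes, 3 GTPases and 2 effectors were lower. Of the 33 genes, 8 passed an FDR of 0.05 (24.2%), all lower, beside 3753 of the 15942 genes tested (23.5%; 11.4% higher and 12.2% lower). The share of the group called in either direction was thus near that of all genes, and the share called lower was 24.2% beside 12.2%. At an unadjusted p under 0.05, 11 of the 33 passed, all lower, beside 37.5% of all genes tested (18.7% lower). Without WT 44, 10 passed (30.3%), 7 lower and 3 higher (Cd74, H2-Aa and H2-Ab1), beside 40.8% of all genes tested (20.9% lower and 19.9% higher). The median log2 fold change was -0.29 over the 33 genes and 0.0045 over all genes tested, and it was -0.93 over the 4 class I genes, -0.77 over the 6 GTPases, 0.04 over 13 antiviral effectors, 0.06 over the 4 transcription factors, -0.36 over the 3 sensors and -0.53 over the 3 class II genes. Without WT 44 the median was -0.10 over the 33 genes, and by role -0.56 for class I, -0.47 for the GTPases, 0.05 for the effectors, 0.08 for the transcription factors, -0.32 for the sensors and 1.32 for class II. Of these roles, 3 of 4 class I genes, 3 of 6 GTPases, 2 of 13 effectors, and 0 of 4 transcription factors, 0 of 3 sensors and 0 of 3 class II genes were called. Since number and genotype cannot be told apart here, the comparison sets 5 libraries of the second run against 4 of the first as well as MFN2 against WT. In 1 fit over all 12 libraries with 3 groups, in which the wider spread of the first-run MFN2 mice enters the error, 0 of the 33 genes passed, with adjusted p between 0.0548 and 0.270 for the 8 genes, beside 1224 of all genes.

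The class I genes come first. B2m (chromosome 2, 122147686 to 122153083, plus strand, GRCm38) stood at 74.5, 41.2, 41.2 and 39.3 CPM in WT 44 to 47 and at 25.8, 23.6, 30.3, 16.0 and 19.4 CPM in MFN2 72 to 76. All 5 second-run libraries lay below all 4 WT libraries, with a log2 fold change of -1.09 ± 0.25 (SE; adjusted p = 0.0171, edgeR). H2-K1 (chromosome 17, 33996017 to 34000347, minus strand) stood at 50.0, 28.6, 24.5 and 21.5 CPM in WT mice, 56.96, 18.8 and 17.7 CPM in MFN2 41 to 43 and 17.1, 16.0, 19.2, 13.4 and 11.1 CPM in MFN2 72 to 76. H2-D1 (chromosome 17, 35262730 to 35267499, plus strand) stood at 110.0, 73.3, 63.5 and 55.9 CPM in WT mice, 156, 54.4 and 35.8 CPM in MFN2 41 to 43 and 53.6, 45.2, 54.6, 46.1 and 39.8 CPM in MFN2 72 to 76. For both heavy chains the second run lay below all WT mice and MFN2 41 above them, with second-run log2 fold changes of -1.02 ± 0.27 (SE; adjusted p = 0.0264) and -0.66 ± 0.20 (SE; adjusted p = 0.0423). Among all genes tested, 10.2% had lower levels with no overlap, and among the 33 genes 5 did (B2m, H2-K1, H2-D1, Gbp7 and Ifitm3), whereas 0 of the 33 and 9.43% of all genes had higher levels with no overlap. Tap1, at 6.77, 2.73, 3.28 and 2.66 CPM in WT mice and 2.59, 2.76, 2.05, 1.63 and 1.73 CPM in the second run, missed the threshold (log2 fold change -0.85 ± 0.29, SE; adjusted p = 0.0532). Without WT 44 its value was -0.43 (adjusted p = 0.151, edgeR). Class I genes share long stretches of near-identical sequence with each other, and C57BL/6 and DBA/2 mice carry different alleles of them, so that their counts depend on how reads of such copies were assigned, which is not given. B2m is a single-copy gene.

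The GTPases were split. Gbp2, a guanylate-binding protein (chromosome 3, 142620602 to 142638008, plus strand), stood at 7.38, 3.77, 3.50 and 2.92 CPM in WT mice, 6.90, 2.67 and 2.77 CPM in MFN2 41 to 43 and 1.54, 3.16, 1.61, 1.28 and 1.84 CPM in MFN2 72 to 76; MFN2 73 overlapped the WT mice, and the log2 fold change was -1.23 ± 0.31 (SE; adjusted p = 0.0165, edgeR). Gbp7 (chromosome 3, 142530342 to 142550149, plus strand) was lower without overlap, with a log2 fold change of -0.71 ± 0.18 (SE; adjusted p = 0.0136). Igtp (Irgm3), an immunity-related GTPase that guards vacuole and lipid droplet membranes (chromosome 11, 58199556 to 58207591, plus strand), stood at 3.97, 1.93, 2.44 and 1.62 CPM in WT mice, 3.43, 1.83 and 1.36 CPM in MFN2 41 to 43 and 1.19, 1.61, 1.77, 1.08 and 1.38 CPM in the second run, with a log2 fold change of -0.83 ± 0.27 (SE; adjusted p = 0.0436); its exons are shared in part with Irgm2, so the split of reads between them is uncertain. Irgm1 and Iigp1 did not pass (adjusted p = 0.529 and 0.0964, edgeR), although Iigp1 did with DESeq2 and with no filter, nor did Gbp3, the most abundant per length, which stood at 6.85, 8.85, 6.02 and 5.90 CPM in WT mice, 6.90, 7.06 and 6.01 CPM in MFN2 41 to 43 and 6.42, 7.53, 7.20, 5.34 and 6.32 CPM in MFN2 72 to 76, a log2 fold change of -0.07 ± 0.14 (SE; adjusted p = 0.754). Among effectors, Ifitm3 (chromosome 7, 141009586 to 141010770, minus strand) was lower without overlap, with a log2 fold change of -0.79 ± 0.17 (SE; adjusted p = 0.00672). Ifi27 (chromosome 12, 103434211 to 103440239, plus strand) had a log2 fold change of -0.46 ± 0.11 (SE; adjusted p = 0.0118), with MFN2 74 above WT 44. Ifitm3, Ifi27, Gbp7, Gbp2 and B2m passed the FDR in each of the 9 fits that left out 1 library. H2-K1 was lost without MFN2 73, without MFN2 75 and without WT 45, H2-D1 passed only without WT 44 and without WT 47, and Igtp only without WT 47. Without WT 44 the log2 fold changes were -0.82 for B2m, -0.70 for H2-K1, -0.42 for H2-D1, -0.87 for Gbp2, -0.47 for Gbp7, -0.64 for Ifitm3 and -0.55 for Ifi27, all 7 called. That of Igtp was -0.51 (adjusted p = 0.127, edgeR). All but Ifi27 were closer to 0 than with WT 44.

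**Figure D4:**
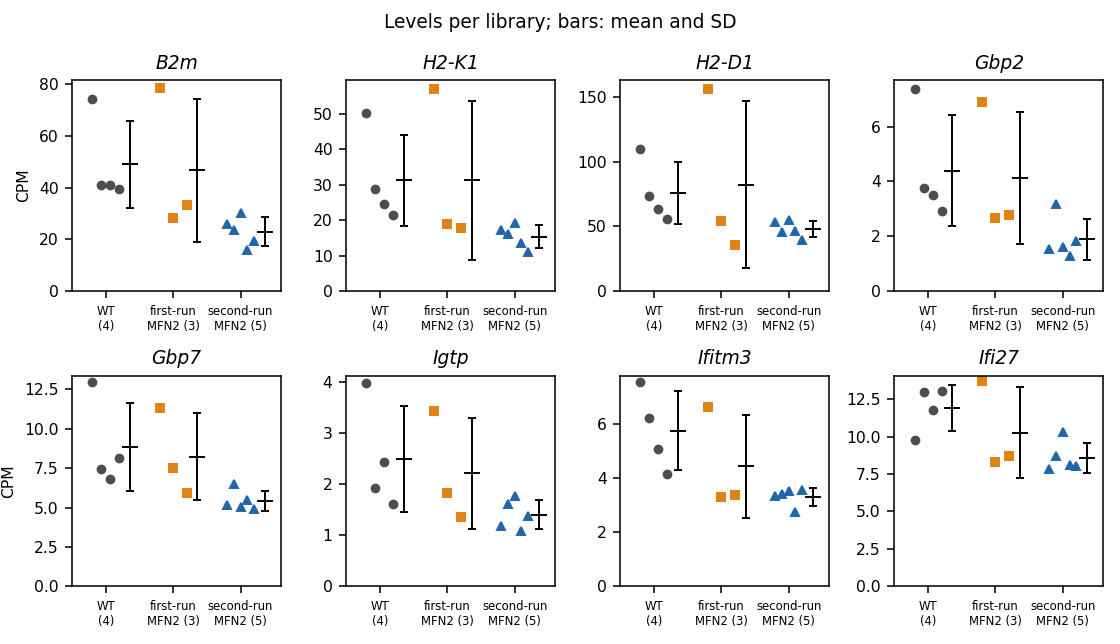
Levels in CPM of the 8 genes past an FDR of 0.05 between second-run MFN2 and WT mice, in WT (4), first-run MFN2 (3) and second-run MFN2 (5) mice; points are mice and bars the mean and SD. The high first-run point in each panel is MFN2 41, and MFN2 42 and 43 lie near the second-run mice in most panels.

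The sensors and their transcription factors showed no call. Ddx58, the most abundant sensor per length, stood at 5.59, 6.50, 4.52 and 5.11 CPM in WT mice, 6.26, 5.23 and 4.93 CPM in MFN2 41 to 43 and 4.61, 6.17, 5.75, 4.53 and 6.32 CPM in MFN2 72 to 76, with full overlap and log2 fold changes of 0.03 ± 0.17 (SE) in the first run and 0.01 ± 0.15 (SE; adjusted p = 0.962) in the second. Ifih1 and Tmem173 had second-run log2 fold changes of -0.39 ± 0.22 (SE; adjusted p = 0.216) and -0.36 ± 0.20 (SE; adjusted p = 0.222). Stat2 stood at 19.8, 15.7, 17.7 and 17.6 CPM in WT mice, 16.1, 16.8 and 16.2 CPM in MFN2 41 to 43 and 15.3, 18.8, 18.1, 19.0 and 21.0 CPM in MFN2 72 to 76, with log2 fold changes of -0.10 ± 0.10 (SE) and 0.06 ± 0.09 (SE; adjusted p = 0.682). An approximate 95% interval of the second-run log2 fold change of Stat2, which takes the estimate as normal, ran from -0.12 to 0.24. With so few mice it may be too narrow. Tmem173 (STING) lay between 1.79 and 1.98 CPM in WT mice and between 1.05 and 2.52 CPM in MFN2 mice (log2 fold change -0.16 ± 0.21, SE; adjusted p = 0.708, 8 against 4 mice). Among the 13 antiviral effectors, Ifit1, Ifit2, Ifit3, Oasl2 and Usp18, chosen after their values were seen, had log2 fold changes of 0.04, -0.10, 0.06, -0.09 and 0.31 over 8 against 4 mice. The 2 effectors past an unadjusted p of 0.05 in that comparison were Ifitm3 (-0.62) and Ifi27 (-0.36), both lower. Reads of Ifit3 may be shared with its near-identical neighbour Ifit3b. Ifi35, Ifi44, Xaf1, Trim30a, Irf1, Irf9, Ifih1, Irgm1 and Iigp1 make up the rest of the genes tested, with adjusted p from 0.0667 (Ifi35) to 0.998 (Trim30a) in the second run.

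**Figure D5:**
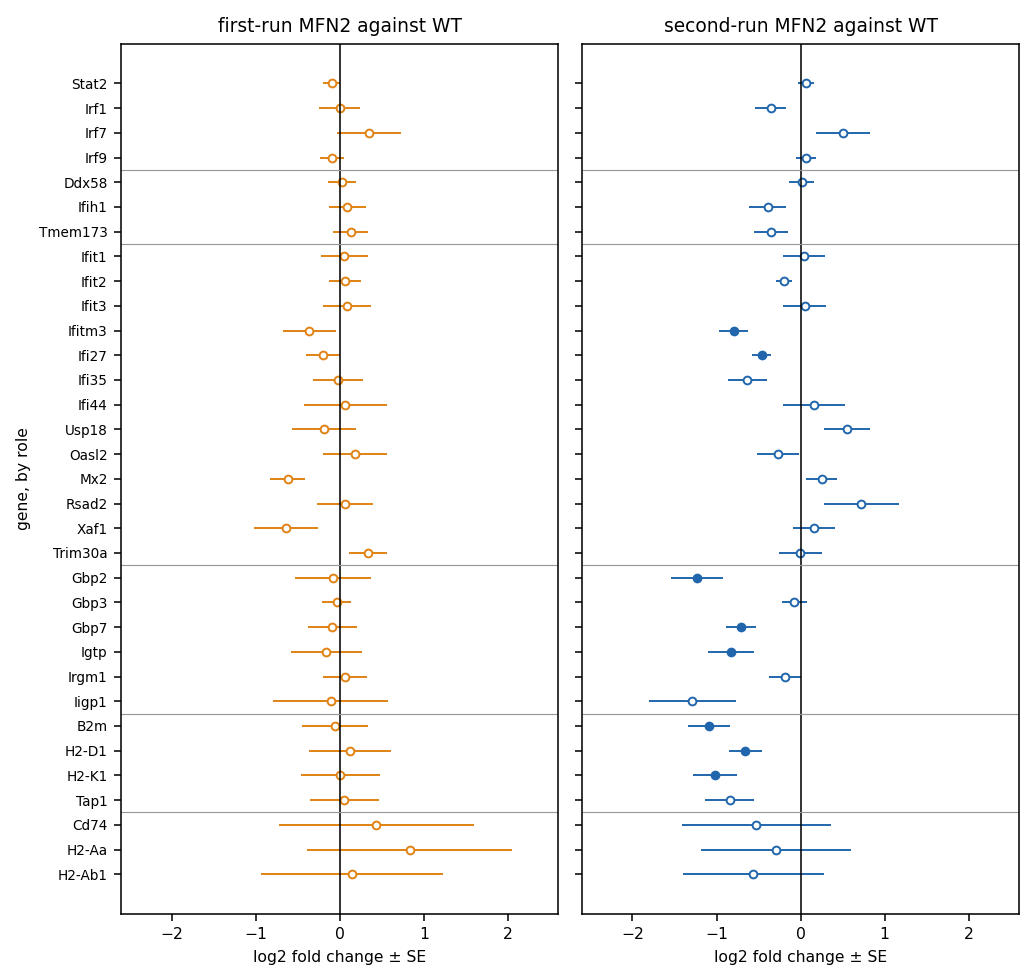
Log2 fold change with its standard error of the 33 genes, by role from transcription factors (top) to class II (bottom), for first-run MFN2 against WT (left) and second-run MFN2 against WT (right); both use the same 4 WT mice. Filled circles passed an FDR of 0.05; all 8 are in the right panel and lie below 0.

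Both MFN2 sets were compared directly, since their genotype label is the same. Between MFN2 72 to 76 and MFN2 41 to 43, 0 of the 33 genes passed an FDR of 0.05, beside 365 of the 15942 genes tested (2.29%). Of the 33 genes, 7 passed an unadjusted p under 0.05, 6 lower and 1 higher, beside 24.5% of all genes tested (13.5% lower and 10.9% higher). The median log2 fold change was -0.35, beside -0.0039 over all genes tested. The gene with the higher level was Mx2, without overlap, as for 9.62% of all genes tested (log2 fold change 0.87 ± 0.21, SE; adjusted p = 0.0670, edgeR). Tap1 was lower without overlap, as for 8.59% of all genes tested (log2 fold change -0.90 ± 0.29, SE; adjusted p = 0.115). Without MFN2 43, the library with forebrain transcripts, 4 of the 33 genes passed, beside 2325 of all genes: Gbp7 (-0.80), Gbp2 (-1.36) and Tap1 (-1.04) were lower and Mx2 (0.80) was higher on the log2 scale. At an unadjusted p under 0.05, 13 then passed (39.4%), 2 higher and 11 lower, beside 30.9% of all genes tested. Those values then rest on MFN2 41, which is high in the 3 lower genes, and MFN2 42. Without MFN2 41 in turn, 0 of the 33 genes passed the FDR and 2 an unadjusted p under 0.05, Mx2 and Xaf1, both higher, beside 26.1% of all genes tested. The median over the 33 genes was then -0.02, with 16 above 0 and 17 below. The log2 fold change of B2m was -0.46 against -1.03 with MFN2 41, that of H2-K1 -0.28 against -1.03, and that of Gbp2 -0.57 against -1.15.

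Microglia and astrocyte markers were lower in the second run beside these genes. All 12 microglia genes had a log2 fold change below 0 against WT mice and 8 passed an FDR of 0.05 (66.7%, beside 12.2% of all genes tested called lower), among them C1qa at -0.83 ± 0.16, Tmem119 at -0.76 ± 0.16 and Cx3cr1 at -0.50 ± 0.08 (SE). Their sum was 212, 282, 256 and 259 CPM in WT mice, 336, 207 and 313 CPM in MFN2 41 to 43 and 185, 198, 187, 159 and 205 CPM in MFN2 72 to 76. Microglia are among the cells of the cord that can hold class I and class II molecules, and their genes were high in MFN2 41 and MFN2 43 and low throughout the second run. Of 6 astrocyte genes, of which Slc1a2 is the most abundant, 4 were lower (66.7%), with Gfap at -1.08 ± 0.26 (SE). Of 8 endothelial genes 1 was lower (12.5%, near the share of all genes), Cldn5 at -0.81 ± 0.17 (SE). Without WT 44, 9 microglia, 3 astrocyte and 4 endothelial genes were called lower, beside 14.9% of all genes tested. Without MFN2 73, 6, 3 and 1 were, beside 10.1%. Of the 13 genes of border macrophages and other leukocytes, 7 were tested and 0 called, and the sum of the list in the second run (46.9, 59.7, 44.9, 40.7 and 45.2 CPM) lay within the range of the WT mice (82.0, 31.5, 40.0 and 48.4 CPM). In the first run the microglia genes had a median log2 fold change of 0.22, or 0.06 without MFN2 41, and 0 calls. The part of fewer microglia or of microglia with less RNA in the lower class I and GTPase levels was not tested.

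Of 108 other genes of the pathway, written as 5 lists, 79 passed the filter. Over 8 against 4 mice 0 of the 79 were called, and over first-run MFN2 against WT mice also 0. In the second run, 20 of the 79 (25.3%, beside 23.5% of all genes) were called against WT mice, 5 higher and 15 lower. Over all genes tested, 11.4% were called higher and 12.2% lower. The balance between higher and lower calls depended on WT 44, and counts without it are given by list. Of all genes tested, 28.3% were called without WT 44 (14.9% lower) and 19.5% without MFN2 73 (10.1% lower). Among receptors, kinases and regulators, 4 were higher and 2 lower of 16 tested (5 and 1 without WT 44, 2 and 1 without MFN2 73). Ifnar1 and Ifngr2, receptor chains for type I and type II interferon, and Irf2 and Ptpn2 were the higher ones. Irf8 and the phosphatase Ptpn11 (SHP2) were the lower ones, the latter with a log2 fold change of -0.35 ± 0.06 (SE; adjusted p = 0.00243). Among sensing genes and adaptors, 1 was higher and 2 lower of 15 (1 and 3 without WT 44, 1 and 2 without MFN2 73). Tlr3, the endosomal receptor of double-stranded RNA, had the smallest adjusted p of the 79 genes, with a log2 fold change of -0.77 ± 0.09 (SE; adjusted p = 0.000249), and it was lower than every WT mouse in all 5 libraries. Tlr3 also had the smallest p over 8 against 4 mice (-0.63 ± 0.14, SE; adjusted p = 0.254, edgeR), followed by Myd88, the adaptor of most Toll-like receptors (-0.53 ± 0.14, SE; adjusted p = 0.254), and Irgm2, an immunity-related GTPase (-0.79 ± 0.24, SE; adjusted p = 0.262). Within the first run the smallest p-values were those of Ticam1 (TRIF), the adaptor of TLR3, at -0.71 ± 0.20 (SE; adjusted p = 0.635), Myd88 at -0.51 ± 0.17 and Tlr3 at -0.39 ± 0.15. Among other interferon-inducible genes, 0 were higher and 6 lower of 26, with Irgm2 at -1.05 ± 0.20 (SE; adjusted p = 0.00346). Without WT 44, 1 of this list was higher and 4 lower, and without MFN2 73, 0 were higher and 8 lower. Among antigen processing and presentation genes, 0 were higher and 5 lower of 22. Without WT 44, 1 of these was higher and 1 lower, and without MFN2 73, 0 were higher and 3 lower. Between the 2 sets of MFN2 mice, Irf2, a factor that competes with IRF1, was the 1 call among the 79, higher in the second run with a log2 fold change of 0.33 ± 0.07 (SE; adjusted p = 0.0496), followed by Gbp9 (-1.18 ± 0.28) and the class I gene H2-Q6 (-2.61 ± 0.64), neither called. Without MFN2 41, and also without MFN2 73, each of these lists had 0 calls. Without MFN2 43, receptors, kinases and regulators had 2 higher and 1 lower, and sensing genes and adaptors 1 and 1. Other interferon-inducible genes and antigen processing and presentation genes then each had 0 higher and 3 lower. Of all genes tested, 14.6% were called in that fit (7.3% lower).

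The labels give different backgrounds to the genotypes, so 4 genes known to differ between C57BL/6 and DBA/2 mice were read in each library, of which Glo1 and Gpnmb passed the filter. H2-Ea-ps, the class II E alpha chain that C57BL/6 mice do not transcribe and DBA/2 mice do, reached at most 0.116 CPM in any library and was at 0 in both MFN2 41 and WT 44, the libraries with the most of the other class II genes. Glo1, which is duplicated in DBA/2 mice and other strains, stood at 68.5, 109, 109 and 112 CPM in WT mice, 71.6, 69.4 and 42.9 CPM in MFN2 41 to 43 and 55.8, 82.2, 57.7, 87.4 and 97.0 CPM in MFN2 72 to 76. WT 44 thus lay below WT 45 to 47 and among the MFN2 mice in this gene. Gpnmb, which carries a stop codon in DBA/2J mice, stood at 1.18, 1.88, 2.88 and 2.35 CPM, 3.05, 0.993 and 1.55 CPM and 0, 0.753, 0.402, 0.465 and 0.612 CPM. The second-run mice had the lowest levels of Gpnmb, without overlap with WT (log2 fold change -2.22 ± 0.51, SE; adjusted p = 0.0104, edgeR), while Glo1 was not called in that comparison (-0.39 ± 0.21, SE; adjusted p = 0.214). Klrd1, which DBA/2J mice lack, reached at most 0.261 CPM. Which alleles each mouse carried was not tested, and genotype and labelled background cannot be told apart.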

How the data were processed

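Lumbar spinal cords of 8 MFN2 and 4 WT mice were sequenced, 1 library per mouse (paired ends). The authors deposited raw counts per Ensembl gene, 1 file per library. Their processing notes name bcl2fastq, STAR and edgeR and build GRCm38.p6, and the study's methods add adapter trimming and FastQC. How reads were counted, and with which strand option, is not given in the sources used here, so genes that overlap another gene's exons (10 of the 39) are uncertain. The labels and the methods name different library kits. Of 49548 genes, 49289 had a GENCODE M21 name and 0 lay on the mitochondrial chromosome.

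Counts were scaled by TMM. The 15942 genes above 1 CPM in at least 3 of 12 libraries were tested with edgeR 4.0.16 (quasi-likelihood, robust, legacy setting, R 4.3.3) and adjusted by Benjamini-Hochberg over all of them, with an FDR of 0.05 or less called. RPKM is the TMM-scaled CPM per kilobase of merged exons. Total counts had a median of 23074724 in MFN2 and 22537154 in WT libraries. Replicates within a genotype differed beyond sampling noise (chi-square per degree of freedom of at least 5.34 over 34 pairs), so none was counted as a duplicate. Standard errors and p-values measure the spread between mice. The fit was tested on simulated counts of the 15942 genes, with 100 genes changed at each of 2 sizes and 1 common dispersion for all genes of a comparison. Promoters, on GRCm38.p6, came from RefSeq.

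The members and lists were chosen with earlier results of these data known. All 39 members are named. Fold changes are given for members called in a comparison and, over 8 against 4 mice, for the 3 higher and 3 lower with the smallest p. Of the other pathway genes, the 3 with the smallest FDR per comparison are given. Levels in each library are given for these members and the most abundant member of each role. Values of Tap1, Mx2, Xaf1, Tmem173, Ifih1, Irgm1, Iigp1, Ifit1, Oasl2, H2-Aa, H2-Ab1, Nlrc5, Ciita and single marker genes were added after they were seen. Alternatives were other filters, scalings and tools (DESeq2 1.42.0, limma-voom 3.58.1), covariates, a fit of 3 groups, and leaving out libraries, of which leaving out 41 with 44 and 43 with 73 was chosen after seeing the data. Some single marker genes are not reported here.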

Additional observations from a re-analysis of the deposited data

Results flagged for a closer look

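Within each genotype, the gap between the highest or lowest library and its neighbour, divided by the range of the group (Dixon's ratio), was compared with its 95% critical value for each of the 39 genes. Of the 78 groups 21 exceeded it, in 16 genes, where chance gives about 1 in 20, or 3.9. These genes share libraries, so that the groups are not independent.

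Library MFN2 41 was far above the other 7 MFN2 mice in 13 genes of antigen presentation, the GTPases and the effectors. Among class I genes the ratio was 0.843 for H2-D1, 0.823 for H2-K1, 0.721 for B2m and 0.654 for Tap1. Among class II genes it was 0.670 for Cd74 and 0.562 for H2-Aa. It was 0.726 for Iigp1, 0.681 for Igtp, 0.665 for Gbp2 and 0.589 for Gbp7 among GTPases, and 0.789 for Ifitm3, 0.736 for Ifit2 and 0.581 for Ifi27 among effectors.

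Library WT 44 was far above the other 3 WT mice in 6 genes, with ratios of 0.966 for Cd74, 0.963 for H2-Ab1, 0.946 for H2-Aa, 0.947 for B2m, 0.867 for Iigp1 and 0.850 for Tap1. It was far below them in Irf7, with a ratio of 0.877. Library MFN2 73 was far above the other MFN2 mice in Rsad2, with a ratio of 0.662. The part of leukocytes, microglia, astrocytes, blood and meninges in these levels was not tested.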

How the results depend on the processing

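Over 8 against 4 mice, 0 of the 33 genes were called under every alternative run, and 0 to 0 when 1 library was left out, while the count over all genes (0) was 200 with DESeq2, 12 with the forebrain list and 4 with Xist as a covariate, 4 without libraries 43 and 73, and 0 to 19 with 1 library left out (19 without MFN2 43). The log2 fold change of Usp18 turned to -0.20 with the number run added as a covariate; the cause was not tested. In the first run the count of the 33 genes stayed at 0, and 0 to 0 with 1 library left out. Its count over all genes (1) was 0 with no filter, 4 with DESeq2, 0 with limma-voom, 0 in the fit of 3 groups, 3 without libraries 41 and 44, and 0 to 2 with 1 library left out.

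In the second run, 8 of the 33 genes and 3753 of all genes were called. The fit of 3 groups called 0 and 1224. With 1 library left out the counts ran from 5 (without MFN2 75 or WT 45) to 9 (without WT 47) and from 2355 (without WT 45) to 4517 (without WT 44). H2-K1 and H2-D1 were not called with no filter on low counts (adjusted p = 0.0762 and 0.117, edgeR), Igtp with upper-quartile scaling (adjusted p = 0.0502) or limma-voom (adjusted p = 0.0578), and H2-D1 and Igtp with library size alone (adjusted p = 0.0646 and 0.0604). Calls were also gained: DESeq2 called 10 of the 33 genes, adding Tap1 (adjusted p = 0.0277) and Iigp1 (adjusted p = 0.0415), the fit with no filter added Tap1 (adjusted p = 0.000857) and Iigp1 (adjusted p = 0.000762), and limma-voom added Ifi35 (adjusted p = 0.0436). All 8 log2 fold changes stayed below 0 in every alternative run.

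Between both sets of MFN2 mice, the count of the 33 genes (0) was 3 with DESeq2 (B2m, Mx2 and Tap1), 1 in the fit of 3 groups (Mx2), 3 without libraries 43 and 73 (Gbp7, Gbp2 and Tap1), and 0 to 4 with 1 library left out (4 without MFN2 43). The count over all genes (365) was 234 above 1 CPM in all 12 libraries, 1775 with DESeq2, 1339 in the fit of 3 groups, 1846 without libraries 43 and 73, and 26 (without MFN2 74) to 2325 (without MFN2 43) with 1 library left out. The causes of these shifts were not tested. No paired analysis was possible because no library number occurs in both genotypes. Depth limits the 6 genes under the filter, which were not tested with that filter.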
